A study of Mus musculus with 6 samples.

Results

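Milk fat globule secretion genes are described here as a set of 7 genes, chosen by name from the deposited expression table of 17739 gene symbols: Btn1a1, Xdh, Plin2, Mfge8, Muc1, Muc15 and Cidea. All 7 were in the table, and all 7 passed the filter on low values. The libraries came from mammary epithelial organoids, which are fragments of the gland's epithelium freed by collagenase and pronase, of mice on lactation day 1. The compared groups were Nmi-/- mice (3 libraries, called Nmi knockout below) and wild-type mice (3 libraries), all of the FVB strain and with 1 library per mouse. The series title calls the knockout conditional, but the sources used here name neither the driver of the deletion nor the exons removed nor the age of the mice. The study asks how losing Nmi, a partner of Myc and of STAT transcription factors that interferon induces, contributed to excess growth of the epithelium.

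Milk fat leaves the alveolar cell in an unusual way. A lipid droplet moves to the apical surface and is wrapped in plasma membrane, and the wrapped droplet, the milk fat globule, buds into the lumen. In mouse mammary gland, butyrophilin (Btn1a1) in the apical membrane binds xanthine oxidoreductase (Xdh) through its cytoplasmic tail, and perilipin 2 (Plin2, also called adipophilin) coats the droplet. Cidea sits on the droplet surface and is known for droplet fusion and, in mice, for milk lipid secretion. Lactadherin (Mfge8) binds phosphatidylserine and integrins on the globule surface, and Muc1 and Muc15 are heavily glycosylated membrane mucins that cover it.

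The labelled tissue matched its markers. The 8 markers of milk-making luminal epithelium were all tested, and the highest were Csn2 and Wap (whey acidic protein). Csn2 (beta-casein) had 111206, 91280 and 142436 FPKM in knockout replicates 1, 2 and 3, against 54112, 85706 and 125272 FPKM in wild-type replicates 1, 2 and 3. Wap had 40751 to 54789 FPKM in the knockout and 23414 to 42553 FPKM in wild type. FPKM divides the fragments of a gene by its length and by the size of its library, so levels can be compared between genes. Nmi had 0.188 to 0.564 FPKM in the knockout libraries and 2.32 to 4.60 FPKM in the wild-type libraries. The 18 genes of a milk protein list (17 tested, 0 called, median log2 fold change 0.32) held from 64.1% to 77.2% of the FPKM sum in knockout libraries and from 48.7% to 71.2% in wild-type libraries. Wild-type replicate 1 was at the low end and knockout replicate 3 at the high end. Fold changes and ratios of members that rest on these libraries are given with and without them. Gapdh was listed between 0 and 0.0769 FPKM, so an entry at or near 0 can be a failed estimate.

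Promoter windows from the RefSeq table (GRCm38.p6) are shown for Plin2, Muc1 and Mfge8, and not for the other members. No relation between the letters of these windows and the levels of the genes across libraries was tested. Each window holds 250 bases before the annotated start and 30 from it, on the strand of the gene, and capitals mark a match to one of the motifs searched on both strands.
Plin2 (chr4:86670030-86670309, minus strand): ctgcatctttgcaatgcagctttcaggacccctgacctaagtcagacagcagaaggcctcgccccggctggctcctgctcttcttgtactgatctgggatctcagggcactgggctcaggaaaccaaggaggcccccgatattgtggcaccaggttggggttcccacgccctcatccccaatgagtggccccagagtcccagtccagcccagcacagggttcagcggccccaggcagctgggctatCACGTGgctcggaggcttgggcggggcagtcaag
Muc1 (chr3:89228806-89229085, plus strand): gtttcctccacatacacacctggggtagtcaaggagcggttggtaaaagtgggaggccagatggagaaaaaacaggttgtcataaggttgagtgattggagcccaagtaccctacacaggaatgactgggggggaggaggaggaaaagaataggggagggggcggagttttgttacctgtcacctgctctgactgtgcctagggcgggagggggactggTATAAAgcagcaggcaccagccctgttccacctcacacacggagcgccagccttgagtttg
Mfge8 (chr7:79149031-79149310, minus strand): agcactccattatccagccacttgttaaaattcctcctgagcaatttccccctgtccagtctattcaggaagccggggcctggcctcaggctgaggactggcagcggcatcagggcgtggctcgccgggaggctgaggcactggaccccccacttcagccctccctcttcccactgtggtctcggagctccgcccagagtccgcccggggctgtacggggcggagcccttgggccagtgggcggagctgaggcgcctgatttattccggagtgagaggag

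The motifs were the E-box CACGTG, the TATA motif TATAAA and the STAT motif TTCNNNGAA. The Plin2 window held 1 E-box, which spans the annotated start, and 6.79% of all 32851 promoter windows of this length hold one. The Muc1 window held 1 TATA motif, starting 31 bases before the start, and 13.1% of all windows hold one. None of the 3 windows held the STAT motif, which 7.83% of all windows hold. A match here is a description of the letters in the window and does not show that a factor binds there.

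All 7 genes were among the most abundant transcripts of these libraries. Mfge8, with 1030 FPKM on average over the 6 libraries, ranked 20 among the 9767 genes tested, and Plin2, with 598 FPKM, ranked 30. Btn1a1 averaged 355 FPKM, Muc1 281 FPKM, Muc15 228 FPKM, Xdh 171 FPKM and Cidea, the lowest at rank 116, 165 FPKM. Together the 7 genes held 0.572% to 0.659% of the FPKM sum in knockout libraries and 0.611% to 0.678% in wild-type libraries. Of the sum outside the milk protein list they held 1.61% to 2.51% in knockout libraries and 1.19% to 2.36% in wild-type libraries.

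The order of these levels was not resolved past the adjusted threshold. It was tested over the 6 libraries with an exact sign-flip permutation test of the log2 ratio of neighbours, two-sided and adjusted over the 6 neighbouring pairs. Muc1 exceeded Muc15 in 6 of 6 libraries (exact p = 0.0312, adjusted p = 0.0938), and Muc15 exceeded Xdh in 6 of 6 (exact p = 0.0312, adjusted p = 0.0938), where 0.0312 is the smallest p that 6 libraries allow. Neither passed the adjusted threshold of 0.05. Mfge8 over Plin2, Plin2 over Btn1a1 and Btn1a1 over Muc1 held in 5 of 6 libraries each, with an exact p of 0.156. Xdh over Cidea held in 4 of 6 (exact p = 0.438), so these 4 neighbouring pairs were not separated beyond their spread.

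Btn1a1, the membrane protein of the secretion complex, differed widely between mice of 1 genotype. Btn1a1 (chromosome 13, 23456992 to 23465901 of GRCm38, minus strand) had 465, 295 and 489 FPKM in knockout replicates 1, 2 and 3, against 149, 380 and 351 FPKM in wild-type replicates 1, 2 and 3. Knockout replicates 1 and 3 were above every wild-type library, knockout replicate 2 was below wild-type replicates 2 and 3, and the groups overlapped. The means were 417 ± 106 FPKM in the knockout and 293 ± 126 FPKM in wild type (SD, n = 3 each). On the log2 scale the fold change was 0.58 with an SE of 0.41 (95% interval -0.32 to 1.48, limma, adjusted p = 0.768 over all 9767 genes). Without wild-type replicate 1 it was 0.15.

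Xdh, the partner of butyrophilin and an enzyme of purine breakdown, varied less. Xdh (chromosome 17, 73883895 to 73950196, minus strand) had 191, 150 and 229 FPKM in the knockout replicates, against 105, 174 and 174 FPKM in the wild-type replicates. Wild-type replicate 1 was the lowest library and knockout replicate 3 the highest, and the groups overlapped. A processed pseudogene, CT025731.2, overlaps Xdh on the same strand. The log2 fold change was 0.35 (SE 0.33, adjusted p = 0.768, limma), 0.10 without wild-type replicate 1 and -0.041 without that library and knockout replicate 3.

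Plin2, the droplet coat, was the member with a lower mean in the knockout. That is the direction of most genes, since 18.3% of all genes tested had a positive log2 fold change. Plin2 (chromosome 4, 86648386 to 86670060, minus strand) had 494, 658 and 233 FPKM in knockout replicates 1, 2 and 3, against 914, 835 and 455 FPKM in wild-type replicates 1, 2 and 3. Knockout replicate 3 was the lowest and wild-type replicate 1 the highest library, the reverse of Btn1a1 and Xdh. Wild-type replicate 3 lay between knockout replicates 3 and 1. The trimmed mean over genes of the log2 ratio to the average library had the same order of libraries. It was -0.0688, 0.119 and -0.459 in knockout replicates 1, 2 and 3, against 0.405, 0.127 and -0.123 in wild-type replicates 1, 2 and 3. The share of all genes with the order of Plin2 was not computed. The means were 462 ± 215 FPKM in the knockout and 735 ± 245 FPKM in wild type (SD, n = 3 each), so the knockout mean was 0.629 times the wild-type mean. On the log2 scale the fold change was -0.73 with an SE of 0.44 (95% interval -1.70 to 0.24, limma, adjusted p = 0.768). It was -0.30 without knockout replicate 3 and -0.11 without both that library and wild-type replicate 1.

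Cidea, the droplet fusion protein, had the largest relative spread of the 7 genes over the 6 libraries, with a coefficient of variation of 44.5%. Cidea (chromosome 18, 67343604 to 67367785, plus strand) had 179, 98.4 and 283 FPKM in the knockout replicates, against 91.2, 131 and 208 FPKM in the wild-type replicates. The knockout libraries held both the highest value and 1 of the lowest 2, so the groups overlapped. The log2 fold change was 0.33 (SE 0.43, adjusted p = 0.777, limma), and -0.031 without knockout replicate 3. A non-coding gene on the other strand, B430212C06Rik, overlaps Cidea and had 0.482 to 0.972 FPKM in knockout libraries and 0.678 to 1.05 FPKM in wild-type libraries.

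The surface proteins of the globule had the smallest log2 fold changes in size as deposited, which did not hold after trimmed-mean scaling or quantile normalization. Mfge8 (chromosome 7, 79133768 to 79149060, minus strand) had 1165, 847 and 1099 FPKM in the knockout replicates, against 686, 862 and 1521 FPKM in the wild-type replicates. Wild type held both ends of the range, and the fold change on the log2 scale was 0.09 with an SE of 0.38 (95% interval -0.74 to 0.92, limma, adjusted p = 0.922). Muc1 (chromosome 3, 89229057 to 89233381, plus strand) had 305, 271 and 315 FPKM in the knockout replicates, against 197, 260 and 338 FPKM in the wild-type replicates. The knockout values lay inside the wild-type range, with a log2 fold change of 0.20 (SE 0.31, adjusted p = 0.806, limma). It was 0.00041 without wild-type replicate 1 and -0.044 without that library and knockout replicate 3, and Mfge8 was at -0.16 and -0.21 in these fits.

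Muc15 was the steadiest member and the only 1 of the 7 whose genotypes did not overlap as deposited. Muc15 (chromosome 2, 110721340 to 110739527, plus strand) had 254, 232 and 267 FPKM in the knockout replicates, against 177, 224 and 214 FPKM in the wild-type replicates. The lowest knockout library was just above the highest wild-type library, and the highest of the 6 was 1.51 times the lowest. The means were 251 ± 17.7 FPKM in the knockout and 205 ± 24.7 FPKM in wild type (SD, n = 3 each), and limma gave 0.30 as the log2 fold change with an SE of 0.29 (adjusted p = 0.768). For Muc15 by itself the exact permutation p was 0.1, and 3 against 3 libraries cannot go lower. Genotypes did not overlap, with the knockout higher, for 0.778% of all genes tested, and with the knockout lower for 3.83%. After trimmed-mean scaling, or with the sum of genes outside the milk list as the scale, 0 of the 7 genes were free of overlap, Muc15 included, and after quantile normalization 1 of the 7 was. For these scales the share over all genes was not computed. Muc15 overlaps Ano3, which is on the other strand and had at most 0.164 FPKM in knockout libraries and 0.196 FPKM in wild-type libraries.

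**Figure D1:**
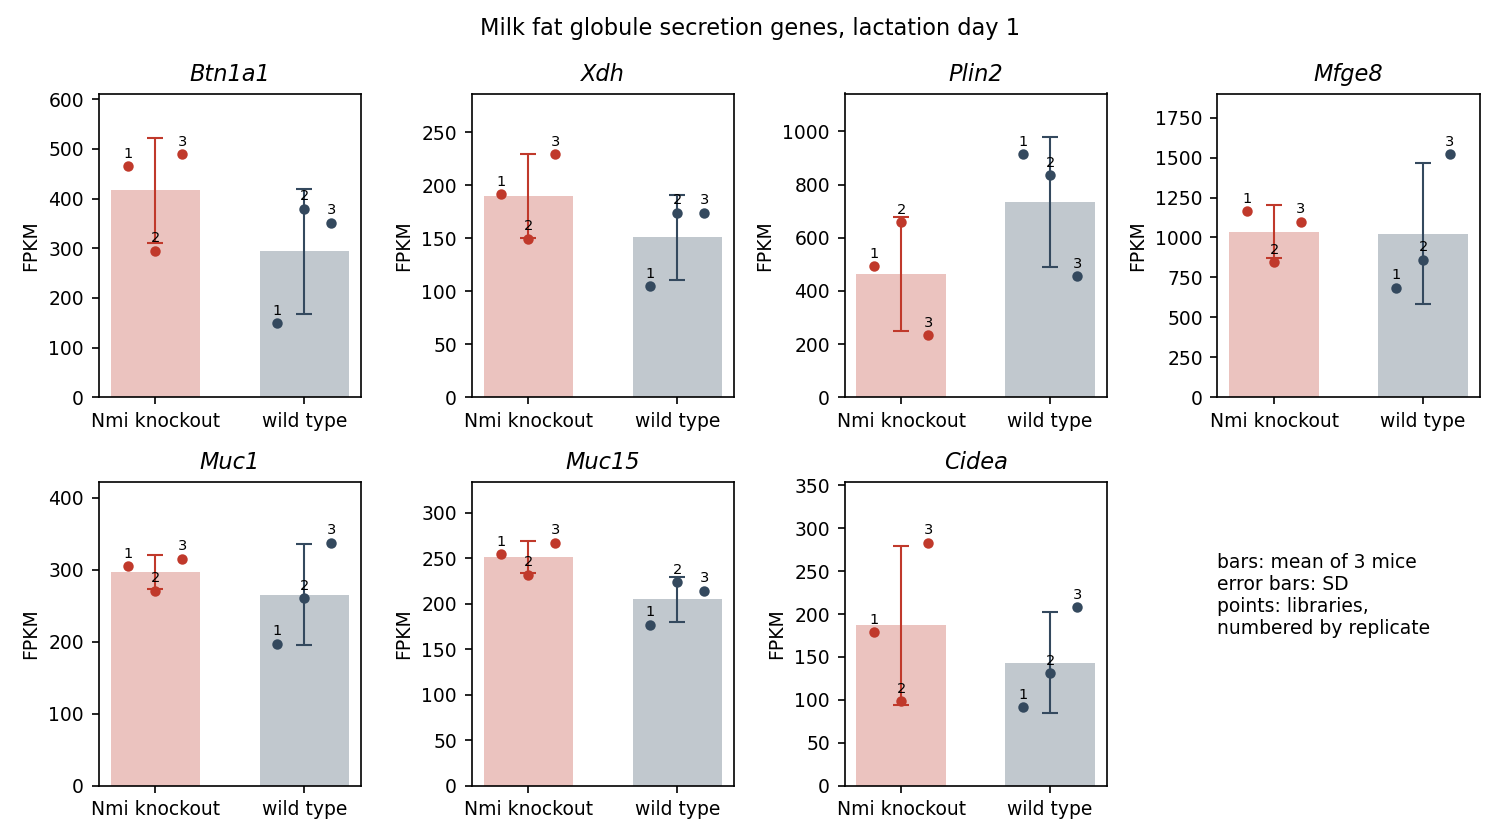
FPKM of the 7 genes in Nmi knockout (red) and wild-type (grey) libraries, with the mean (bar), the SD (error bar) and each library as a point labelled with its replicate number. Wild-type replicate 1 is the lowest library for every gene except Plin2, for which it is the highest at 914 FPKM.

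No member was called. After Benjamini-Hochberg adjustment of the limma p-values, 0 of 7 passed the threshold of 0.05, as did 0 of the 9767 genes tested (background 0%). At an unadjusted p under 0.05 the members again numbered 0, and the smallest p, that of Plin2, was 0.126. The background at that level was 0.184% of genes with a higher and 1.15% with a lower knockout level. The log2 fold change was positive for 6 of the 7 genes, against 18.3% of all genes tested, and its median was 0.30 over the 7 genes and -0.21 over all genes. After trimmed-mean scaling, which weighs down the few very abundant transcripts, the median of all genes was 0.01. With that scaling the log2 fold changes were 0.85 for Btn1a1, 0.62 for Xdh, 0.60 for Cidea, 0.57 for Muc15, 0.47 for Muc1, 0.36 for Mfge8 and -0.46 for Plin2. The median of the 7 genes was -0.044 when wild-type replicate 1 and knockout replicate 3 were both left out, which also put Btn1a1 at 0.021. The sign of Mfge8 turned in 4 of 14 alternatives and that of Cidea in 3 of 14, where alternatives that changed only the filter could not move either.

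**Figure D2:**
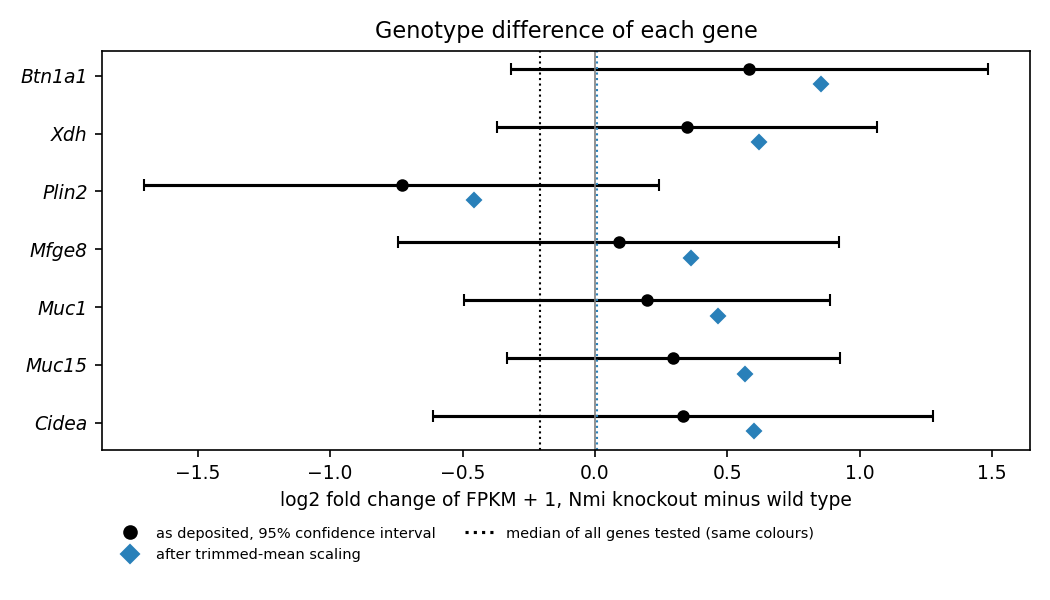
Log2 fold changes of the 7 genes, Nmi knockout minus wild type, as deposited with the 95% confidence interval of limma (black) and after trimmed-mean scaling (blue), with the median of all genes tested as dotted lines. Every interval includes 0, and Plin2 is the only gene on the negative side in both.

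Ratios between members within a library do not depend on how the library was scaled. Plin2 stood at 1.06, 2.23 and 0.476 times Btn1a1 in knockout replicates 1, 2 and 3, against 6.13, 2.199 and 1.29 times in wild-type replicates 1, 2 and 3. The knockout and wild-type values overlapped, since knockout replicate 2 lay just above wild-type replicate 2. The mean log2 ratio was 0.058 ± 1.11 in the knockout and 1.37 ± 1.14 in wild type (SD, n = 3 each), a difference of -1.32 (exact permutation p = 0.3, two-sided, adjusted p = 0.808 over 21 pairs). It was -0.13 without wild-type replicate 1 and knockout replicate 3.

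Plin2 also had lower mean ratios in the knockout to each of the other 5 genes, with log2 differences from -0.82 (to Mfge8) to -1.08 (to Xdh) and exact permutation p from 0.2 to 0.5. Against Cidea, the other droplet protein, the ratio ran over a 12.2-fold range: 2.76, 6.69 and 0.823 in the knockout replicates, against 10.03, 6.35 and 2.19 in the wild-type replicates. Knockout replicate 3 was the library with less Plin2 than Cidea. The log2 differences of Plin2 to Mfge8 and to Cidea turned to 0.093 and 0.21 without that library and wild-type replicate 1.

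Ratios that left out Plin2 were tighter. Muc1 stood at 1.20, 1.17 and 1.18 times Muc15 in the knockout replicates, against 1.12, 1.16 and 1.57 times in the wild-type replicates. Wild-type replicate 3 was apart from the other 5 libraries. The ratio of Btn1a1 to its partner Xdh was 2.43, 1.97 and 2.13 in the knockout replicates, against 1.43, 2.18 and 2.02 in the wild-type replicates, with wild-type replicate 1 the lowest. In the 21 pairs, genotypes did not overlap for 0, and the smallest adjusted p was 0.808.

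**Figure D3:**
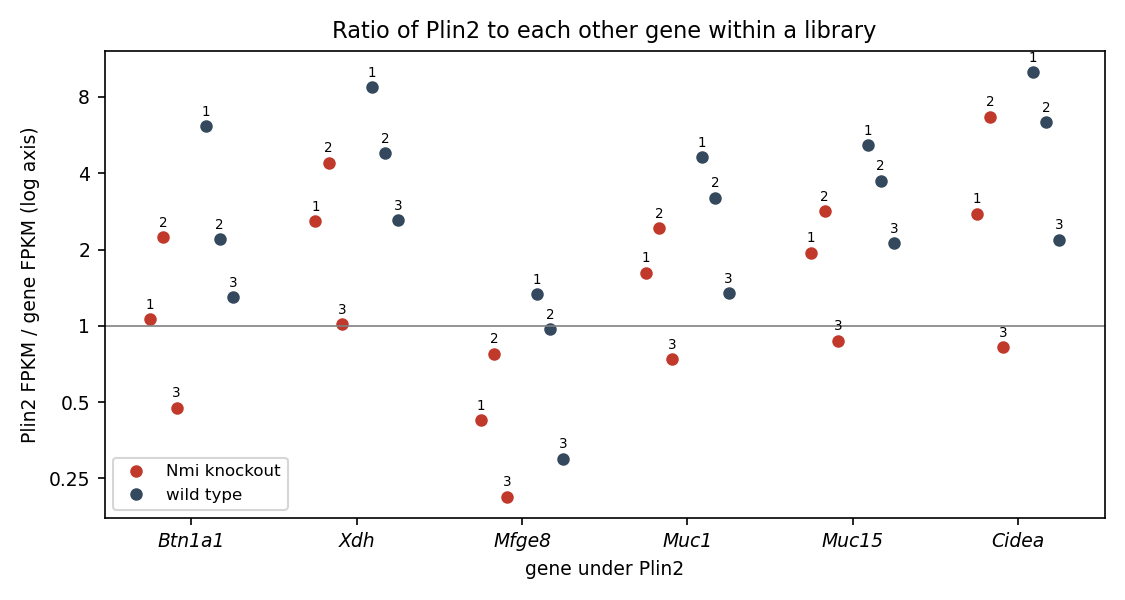
FPKM of Plin2 divided by the FPKM of each other gene in the same library, on a log axis, for Nmi knockout (red, left in each column) and wild type (grey, right), labelled by replicate. In every column the lowest ratio is knockout replicate 3 and the highest is wild-type replicate 1, with 0.476 and 6.13 for Btn1a1.

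Across the 6 libraries, Pearson's r with the level of milk protein transcripts was positive for 6 of the 7 genes and negative for Plin2. The sign of r was not counted over all genes tested, of which 18.3% had a positive log2 fold change. After adjustment r passed 0.05 for all except Muc15, and Spearman's rho for Muc1, Mfge8 and Cidea. The share of all genes tested that would pass was not computed, so these counts have no background beside them. After quantile normalization rho passed for none of the 7, with an adjusted p of 0.0681 for Muc1, Mfge8 and Cidea. The level was the mean log2(FPKM + 1) of the 17 tested genes of the milk protein list, none of them a member. It was 10.6 to 10.9 in knockout replicate 2 and wild-type replicates 1 and 2, and 11.4 to 11.5 in the other 3 libraries, with none in between. Muc1 had Pearson r = 0.94 (exact permutation p = 0.00278, adjusted p = 0.0194 over the 7 genes) and Spearman rho = 0.94 (exact p = 0.0167, adjusted p = 0.0389). Mfge8 had r = 0.95 (exact p = 0.0125, adjusted p = 0.0356) and rho = 0.94 (exact p = 0.0167, adjusted p = 0.0389). Cidea had r = 0.92 (exact p = 0.0236, adjusted p = 0.0356) and rho = 0.94 (exact p = 0.0167, adjusted p = 0.0389).

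Plin2 had r = -0.84 (exact p = 0.0306, adjusted p = 0.0356) and rho = -0.89 (exact p = 0.0333, adjusted p = 0.0583), so it passed the adjusted threshold with r and missed it with rho. Btn1a1 had r = 0.81 (exact p = 0.0292, adjusted p = 0.0356) with rho = 0.66 (exact p = 0.175, adjusted p = 0.204). Xdh had r = 0.84 (exact p = 0.0194, adjusted p = 0.0356) with rho = 0.66 (exact p = 0.175, adjusted p = 0.204). Muc15 had r = 0.70 (exact p = 0.111, adjusted p = 0.111) and rho = 0.37 (exact p = 0.497, adjusted p = 0.497), and did not pass with either.

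The 2 libraries farthest from the median milk level were wild-type replicates 1 and 3. Without them r was -0.85 for Plin2 and between 0.87 and 0.98 for the other 6 genes, over 4 libraries. Knockout replicate 2 and wild-type replicate 2 had close milk levels, 10.917 and 10.920. Knockout replicates 1 and 3 had 11.411 and 11.467, so this r is near a contrast of 2 levels. FPKM shares 1 denominator per library, of which the milk list held 48.7% to 77.2% over the 6 libraries, so the relation was repeated after trimmed-mean scaling. There r was -0.86 for Plin2 (exact p = 0.0264, adjusted p = 0.0264) and 0.91 to 0.98 for the other 6 genes; rho of Plin2 was -0.94 (exact p = 0.0167, adjusted p = 0.0292), and the slope of Plin2 was -0.60 log2 units per log2 unit of milk level instead of -1.62. With that scaling the libraries farthest from the median milk level were wild-type replicate 1 and knockout replicate 3. Without them r was 0.74 for Btn1a1, 0.79 for Muc15, 0.89 for Xdh and -0.88 for Plin2. For Cidea, Mfge8 and Muc1 it was 0.96 to 0.99. With the sum of non-milk genes as the scale, r of Btn1a1 was 0.70 without them. As deposited, r without these libraries was not computed. A genotype holds 3 libraries, and no correlation was computed within one.

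**Figure D4:**
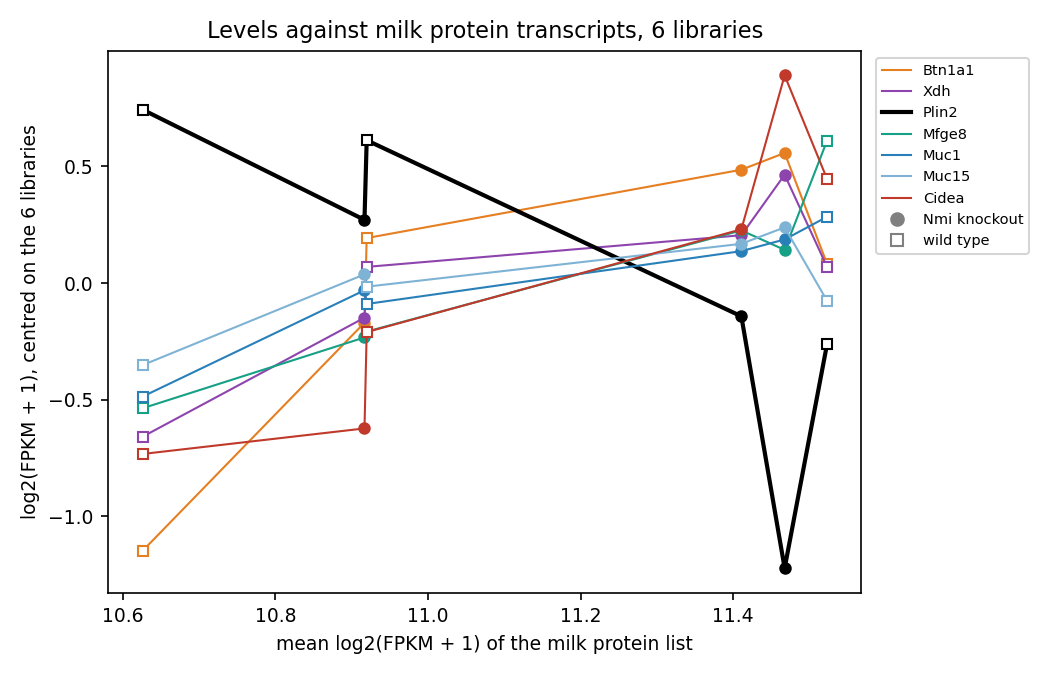
Log2(FPKM + 1) of each gene, centred on its mean over the 6 libraries, against the mean log2(FPKM + 1) of the milk protein list. Filled circles are Nmi knockout and open squares wild-type libraries, and lines join the libraries in order of milk level: Plin2 (thick black) is high at the left and low at the right (r = -0.84), while the other genes are lowest at the left end. Muc15 is below its mean again in the library with the highest milk level (rho = 0.37).

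Of the 8 luminal markers 4 had positive log2 fold changes (Csn2, Wap, Lalba and Elf5) and 4 negative (Krt8, Krt18, Epcam and Cdh1). The keratins and the adhesion genes Epcam and Cdh1 had their ends in the same libraries as Plin2. Epcam had 378, 467 and 190 FPKM in the knockout replicates, against 578, 481 and 392.5 FPKM in the wild-type replicates. Krt8 had 596, 983 and 198 FPKM in the knockout replicates, against 1515, 929 and 647 FPKM in the wild-type replicates. Krt18 had 638, 908 and 210 FPKM in the knockout replicates, against 1627, 1022 and 719 FPKM in the wild-type replicates. For these genes wild-type replicate 1 was the highest and knockout replicate 3 the lowest library, as for Plin2 and for the trimmed mean over genes. The part of this shared pattern in the Plin2 values was not tested. In a bulk sample, fewer cells of a type and less RNA per cell cannot be told apart.

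Plin2 and Cidea are also made by adipocytes, and Mfge8 by macrophages. Of 12 adipocyte markers, 11 were in the table and 3 passed the filter: Fabp4, Lipe and Pparg. Pparg had 1.19 to 1.33 FPKM in the knockout and 0.765 to 1.59 FPKM in wild type. Adipoq was listed at 0 in 4 libraries with at most 0.0957 FPKM, and Plin1 at 0 in 5 with at most 0.0191 FPKM. Retn and Cfd were listed at 0 in 4 each, and these low entries were not read as absence. The summed level of the list was 166 to 460 FPKM in the knockout and 227 to 683 FPKM in wild type, nearly all of it Fabp4, followed by Lipe with 7.99 to 18.5 FPKM in the knockout and 10.8 to 23.3 FPKM in wild type. Fabp4 had 264, 440 and 157 FPKM in the knockout replicates and 672, 498 and 212 FPKM in the wild-type replicates. Fabp4 is also expressed by endothelial cells, whose 9 markers summed to 73.8 to 143 FPKM in the knockout and 82.0 to 157 FPKM in wild type, led by Cldn5 and Cdh5. Fabp4 followed the same order of lowest and highest library as Plin2, and its part in the Plin2 values was not tested.

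The 12 macrophage markers summed to 13.4 to 35.8 FPKM in the knockout and 15.02 to 20.2 FPKM in wild type, with Adgre1 at most 0.210 FPKM. The part of macrophages in the Mfge8 values was not tested. Of the 5 tested, 4 had positive and 1 negative log2 fold changes (median 0.63). The highest were Lyz2, which had 2.81, 8.75 and 8.56 FPKM in the knockout replicates, against 3.23, 5.24 and 3.85 FPKM in the wild-type replicates, and Cd68. Cd68 was the negative one and had non-overlapping values, as 3.83% of all genes did with the knockout lower, at 5.03, 5.64 and 3.35 FPKM in the knockout replicates, against 6.92, 6.84 and 6.94 FPKM in the wild-type replicates (limma adjusted p = 0.768). The 9 basal and myoepithelial markers summed to 450 to 1568 FPKM in the knockout and 540 to 1178 FPKM in wild type, with Acta2 and Tagln the highest. All 9 had negative log2 fold changes (median -0.31). Trp63 was the 1 of 9 without overlap, beside 3.83% of all genes with the knockout lower, with 1.81 to 2.81 FPKM in the knockout and 2.94 to 9.22 FPKM in wild type. The 9 fibroblast markers summed to 37.2 to 71.3 FPKM in the knockout and 26.0 to 62.0 FPKM in wild type, led by Col3a1 and Dcn. No marker of the 6 lists was called after adjustment.

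The genes whose pattern over the 6 libraries was most like each member, by Pearson r of log2(FPKM + 1), are a description chosen from 9767 genes. Closest to Plin2 were Zfp729a (r = 0.999), Pdxdc1 (0.998) and Mmgt2 (0.997), of which Pdxdc1 had 9.94, 10.7 and 8.04 FPKM in the knockout replicates, against 11.6, 11.5 and 9.53 FPKM in the wild-type replicates. Pdxdc1 follows the order of Plin2 over a much narrower range. Closest to Btn1a1 were Entpd6 (0.996), Fam20a (0.992) and Acss1 (0.984), and closest to Xdh were Bhlha15 (0.996), Entpd6 (0.992) and Nr4a1 (0.990), so Entpd6 was near both partners.

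Closest to Cidea was Scd1 (0.996), the stearoyl-CoA desaturase, with 1504, 766 and 2965 FPKM in the knockout replicates, against 605, 1046 and 2062 FPKM in the wild-type replicates. Gm2a (0.995) and Rnf145 (0.992) came next. Csn2 was among the 3 closest to Muc1 (0.971), behind Wfdc3 (0.992) and ahead of Slc25a10 (0.970), and Trf, which encodes transferrin, was among those closest to Mfge8 (0.965), behind Ap5s1 (0.984) and Cited2 (0.974). Closest to Muc15 were Fam110a (0.992), St3gal1 (0.989), a sialyltransferase, and Rnf144b (0.980).

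Other proteins of the milk fat globule membrane showed no call either. Of 30 listed genes, 30 were tested, 0 passed in either direction, 10 had positive and 20 negative log2 fold changes, and the median was -0.09, against -0.21 for all genes. Clu (clusterin) was the most abundant, with 1098, 957 and 504 FPKM in the knockout replicates, against 1114, 912 and 689 FPKM in the wild-type replicates. Fabp3, a fatty acid binding protein, had 420, 251 and 1097 FPKM in the knockout replicates, against 174, 245 and 556 FPKM in the wild-type replicates.

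The scavenger receptor Cd36, a major membrane glycoprotein of the globule, was steady at 134, 147 and 127 FPKM in the knockout replicates, against 111, 129 and 130 FPKM in the wild-type replicates. The smallest p of the list were those of Anxa2, an annexin (log2 fold change -0.96, SE 0.55), and the phosphate transporter gene Slc34a2 (1.49, SE 0.91), both at an adjusted p of 0.768 with limma. Anxa2 had its ends in the same libraries as Plin2, with 69.0, 142 and 32.1 FPKM in the knockout replicates, against 256, 128 and 72.6 FPKM in the wild-type replicates. Slc34a2 had its ends in the same libraries as Btn1a1, with 20.4, 7.37 and 103 FPKM in the knockout replicates, against 1.497, 11.4 and 26.1 FPKM in the wild-type replicates.

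Of 27 listed genes of lipid droplet coats, fusion and lipolysis, 24 were in the table and 18 were tested, and 0 passed in either direction. Of the 18, 3 had positive and 15 negative log2 fold changes, and the median of -0.20 was close to that of all genes. Plin3, the other perilipin that passed the filter, had 19.7, 18.4 and 12.3 FPKM in the knockout replicates, against 32.2, 20.98 and 18.2 FPKM in the wild-type replicates (log2 fold change -0.46, SE 0.30, adjusted p = 0.768, limma). As for Plin2, wild-type replicate 1 was the highest and knockout replicate 3 the lowest library. Plin1, Plin4 and Plin5 did not pass the filter, and their low entries were not read as absence.

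The lipolysis genes Abhd5 and Pnpla2 were the most abundant tested genes of that list. Abhd5, which activates the triglyceride lipase, had 103, 70.0 and 64.2 FPKM in the knockout replicates, against 64.2, 90.5 and 67.2 FPKM in the wild-type replicates. Pnpla2, the lipase itself, had 82.4, 53.3 and 45.8 FPKM in the knockout replicates, against 67.4, 76.8 and 57.8 FPKM in the wild-type replicates. Aup1 followed them with 37.7 to 42.7 FPKM in the knockout and 38.9 to 47.6 FPKM in wild type. Spg20, which encodes spartin, was the 1 of 18 with non-overlapping genotypes, a share near the 3.83% of all genes with the knockout lower. It had 5.75, 6.99 and 3.77 FPKM in the knockout replicates, against 10.7, 7.21 and 7.06 FPKM in the wild-type replicates (log2 fold change -0.53, SE 0.27, adjusted p = 0.768, limma).

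Relatives of the members were described from the butyrophilin and mucin lists. In the butyrophilin family 5 of 7 listed genes were in the table and Btnl9 alone was tested, with 1.28 to 2.14 FPKM in the knockout and 1.10 to 2.36 FPKM in wild type, while Btn1a1 had at least 149 FPKM in every library. Of the other membrane mucins, 3 were tested and 0 passed, with a median log2 fold change of -0.12. Muc4 had 66.8, 119 and 16.5 FPKM in the knockout replicates, against 92.4, 118 and 72.6 FPKM in the wild-type replicates, and Muc20 had 18.2 to 28.4 FPKM in the knockout and 20.1 to 26.3 FPKM in wild type. Emcn, an endothelial sialomucin, had 4.08 to 6.85 FPKM in the knockout and 2.08 to 14.0 FPKM in wild type.

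Xdh needs a molybdenum cofactor and acts in purine breakdown. Of 12 listed genes of those pathways 8 were tested and 0 passed, 2 with positive and 6 with negative log2 fold changes and a median of -0.09. Mocs1, which starts cofactor synthesis, had 15.9, 7.32 and 26.5 FPKM in the knockout replicates, against 6.80, 12.2 and 12.8 FPKM in the wild-type replicates. Its lowest library was wild-type replicate 1 and its highest knockout replicate 3, as for Xdh. Gda, the guanine deaminase, had 13.1 to 24.2 FPKM in the knockout and 15.4 to 23.6 FPKM in wild type. Mocs2 had 8.57 to 10.2 FPKM in the knockout and 8.02 to 11.1 FPKM in wild type, and Mocs3 had 1.56 to 2.16 FPKM in the knockout and 1.95 to 3.69 FPKM in wild type.

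**Figure D5:**
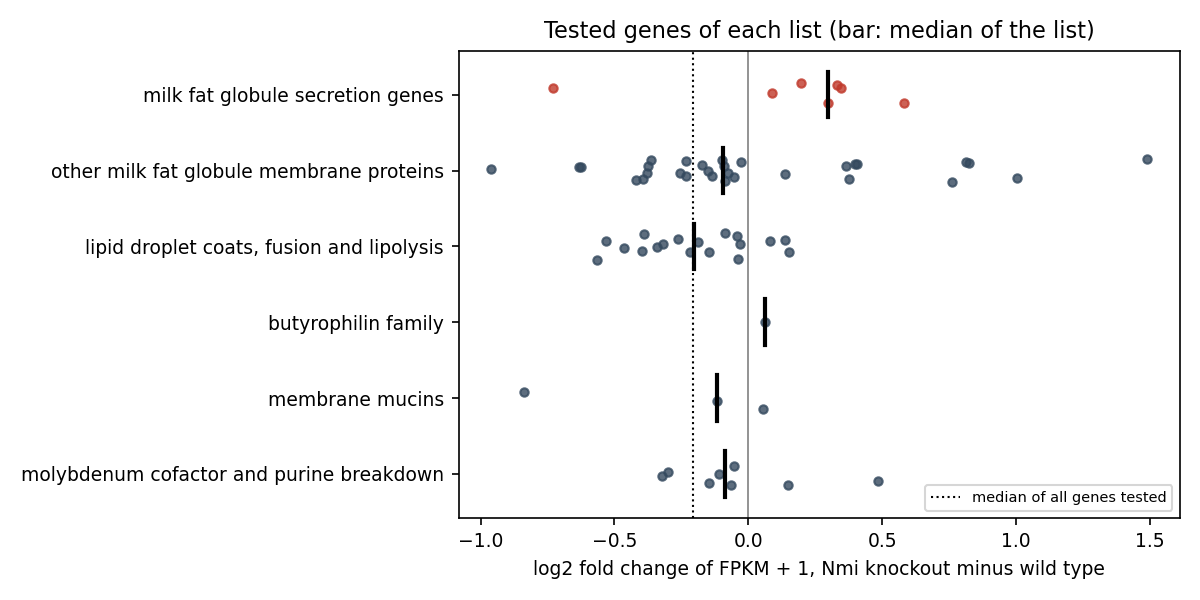
Log2 fold changes, Nmi knockout minus wild type, of the tested genes of each list, with the median of the list as a bar and the median of all genes tested as a dotted line at -0.21. The 7 milk fat globule secretion genes (red) have their median at 0.30 with Plin2 alone below 0, and the 18 tested droplet genes centre on -0.20.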

How the data were processed

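Values are FPKM as the authors deposited them, in a single table. The submitters' processing notes name FastQC, TopHat, SAMtools and Cufflinks, and the builds mm10 and GRCm38. Their versions, strand setting and annotation were not stated there. FPKM holds no counts and the absolute depth is unknown, so no counting interval was computed and precision comes from the spread between mice.

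Genes with at least 1 FPKM in at least 3 libraries (9767) were tested as log2(FPKM + 1), a scale on which the change of low genes is understated, with limma 3.58.1 in R 4.3.3 (intensity trend, two-sided, Benjamini-Hochberg). Single values and ratios used exact permutation tests of 20 regroupings (Python 3.11.15, scipy 1.17.1). Trimmed-mean scaling dropped 30% of log ratios and 5% of levels at each side. In simulated data with the spread of each gene in this comparison and 200 of 9767 genes shifted, limma recovered 14% of shifts of 1 log2 unit. It recovered 70% of shifts of 2 and made 4 false calls. The simulated noise was normal and independent between genes. Shifts that many genes share within a library were not simulated, so these figures need not hold for the real libraries.

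The members and lists were chosen with earlier results of these data known. Named genes are the members, their 3 closest genes and, per list of related genes, the 3 highest and the 2 with the smallest p. Per marker list they are the 2 highest. The milk protein list is given as a whole, and its genes were not named by this rule. Krt8, Krt18, Epcam, Cdh1, Lalba, Elf5, Adipoq, Pparg, Plin1, Plin4, Plin5, Retn, Cfd, Adgre1, Trp63 and the genes overlapping members were named after their values were seen. BLAST 2.17.0 found no copy of a member at 95% identity over 50% of its longest transcript. Gapdh was named as a check. Coordinates are from GENCODE mouse release 21 (GRCm38).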

Additional observations from a re-analysis of the deposited data

How the results depend on the processing

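In every alternative 0 members were called. Btn1a1, Muc15 and Plin2 kept their direction in all 14 alternatives, with log2 fold changes from 0.021 to 0.85, 0.15 to 0.57 and -1.05 to -0.11. Alternatives that changed only the filter cannot move a member's fold change, and a pseudocount of 0.1 hardly moved it. With the milk protein level as a covariate Mfge8 turned to -0.19 and Cidea to -0.057. Leaving out 1 library at a time gave -0.16 to 0.42 for Mfge8, -0.031 to 0.73 for Cidea, 0.10 to 0.51 for Xdh and 0.00041 to 0.39 for Muc1, and log2 ratio differences of Plin2 from -1.46 to -0.34 to Mfge8 and from -1.78 to -0.27 to Cidea. Without both wild-type replicate 1 and knockout replicate 3, an alternative chosen after seeing the data, Xdh was -0.041, Muc1 -0.044, Mfge8 -0.21, Cidea -0.31 and the median of the members -0.044, and the log2 ratio difference of Plin2 was 0.093 to Mfge8 and 0.21 to Cidea. The cause was not tested. Genotypes did not overlap for 1 member as deposited, for 0 after trimmed-mean scaling, for 0 with the sum of non-milk genes as the scale, for 1 after quantile normalization, and for 1 to 3 with 1 library left out. The share over all genes tested was computed for the deposited values with all libraries alone, so the other counts have no background beside them. Of the 21 ratios, 0 were free of overlap with all libraries, 0 to 6 with 1 left out (6 without knockout replicate 2, 5 without wild-type replicate 2 or 3), and 1 without both end libraries; fewer libraries make overlap rarer by construction. The correlation of Muc15 with the milk level passed after trimmed-mean scaling (r = 0.92) and non-milk scaling (0.91), but not after quantile normalization (r = 0.78, adjusted p = 0.0611, exact permutation test); without the 2 libraries farthest from the median the trimmed-mean r was 0.79. The labels give the mice different numbers, so no pairing was used. With 5 libraries the order of levels cannot reach the threshold.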
